A study of Mus musculus with 24 samples.

Results

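The liver array taken 1 hour after an oral Ephedra herba extract was set against the 7 other liver arrays of the same series, those of untreated mice and of 6, 12 and 24 hours and 3, 5 and 10 days. Genes were chosen by their values on these same arrays: a gene counted as high when its log2 intensity at 1 hour lay above its array's median and at least 1 (2-fold) above the highest of the other 7. Of 16110 genes, 61 met this rule, which is 0.379% of the genes, and 0 genes (0%) met the mirrored rule for low values. The same rule gave 1 high (0.00621%) and 16 low genes (0.0993%) for the liver array of 5 days. Because the values chose the genes and only 1 array stands on one side, the sizes are a description and carry no test. The high genes were mostly those of other organs: 26 belong to a list of exocrine pancreas genes, 9 to a list of skeletal muscle genes and 2 to a list of heart muscle genes. Liver's own genes stood out by far less, and the widest margin below the other 7 arrays among genes above the median on all 7 was 0.87 log2 units, for Dclk3.

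The series measured RNA in brain, heart and liver of female C57BL/6 mice aged 5 weeks, on 24 bead arrays with 1 array for each tissue and time. Treated mice were given an aqueous extract of the plant by mouth at 50 mg/kg, and the remaining mice were untreated. The labels do not say how many animals stood behind an array, whether 1 animal gave all its tissues, or at what hour of the day it was killed. The other 7 liver arrays are different times rather than replicates of one condition, so their range mixes time with chance.

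Acinar cells of the exocrine pancreas make digestive enzymes as inactive precursors, store them in zymogen granules and release them into the gut, and their enzyme messages are among the most abundant of any tissue. Fast skeletal muscle uses its own isoforms of the troponins, myosin light chains and calcium pump, several of which the heart does not use. Hepatocytes make plasma proteins, lipids, bile acids and drug-metabolising enzymes, and normally make little of either set. Ephedra stems contain ephedrine-type alkaloids, which act on adrenergic signalling.

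The deposited values are centred near 0 on each array, so 0 stands for the middle probe of an array and not for absence, and no detection call was used. The array of 1 hour looked like a liver array overall. Its Spearman correlation with the other liver arrays over all probes was 0.816 to 0.935, highest with 10 days and next with untreated liver (0.929). The top of its scale was 8.11, against 7.84 to 11.16 on the other 7, where the arrays of 6, 12 and 24 hours reached 10.57 or more. The hepatocyte list averaged 6.19 at 1 hour, against 6.04 to 8.15 on the other 7 liver arrays. Brightest liver transcripts sat at the top of every liver array: Apoc1, an apolipoprotein, was at 8.07 at 1 hour, against 7.81 to 11.07 on the others. Such genes can hardly show a difference beyond that of the scale itself. In bulk tissue, fewer cells of a type and less RNA per cell cannot be told apart.

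**Figure D1:**
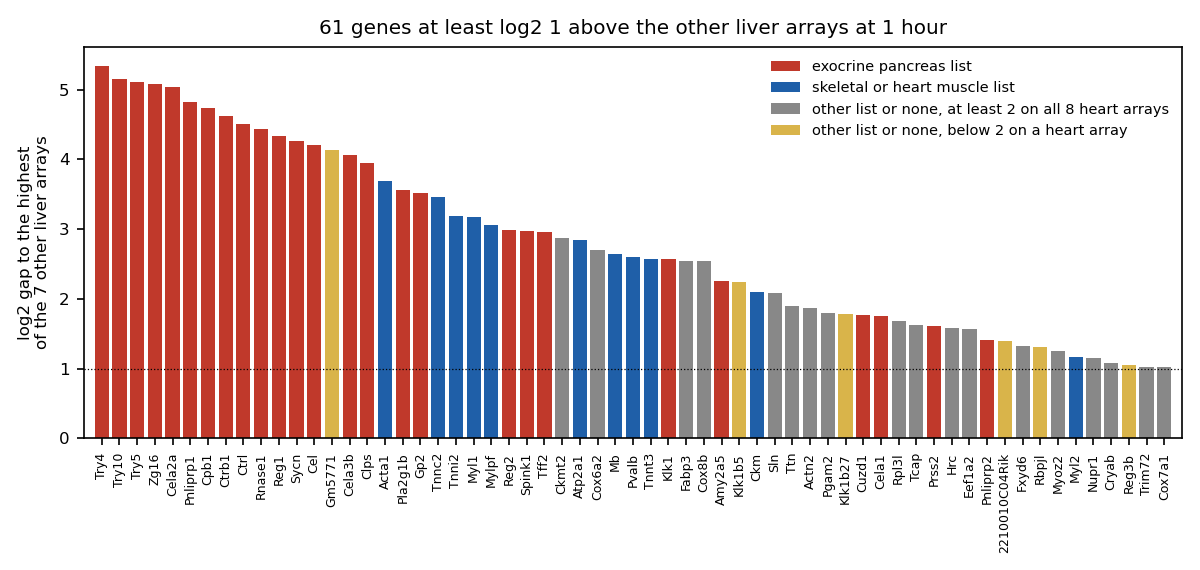
Each bar is 1 of the 61 genes, and its height is the log2 distance at 1 hour to the highest of the 7 other liver arrays, with the dotted line at the limit of 1. Exocrine pancreas genes (red) fill most of the left side, led by Try4 at 5.34. Genes of the muscle lists (blue) and heart-bright genes of any other list or none (grey) fill most of the rest. Grey stands for at least 2 on all 8 heart arrays, which 21.7% of all genes met, and not for a muscle gene as such.

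The margins were wide for many of the 61 genes. Their median distance above the highest of the other 7 arrays was 2.60 log2 units, 39 genes exceeded it by at least 2, and 15 by at least 4. Of the 61, 26 lay above the array median on none of the other 7 liver arrays and 5 on all of them. The genes nearest the limit were muscle genes on either side: Cox7a1 at 1.02 and Trim72 at 1.03 just inside, with Reg3b of the gut and pancreas at 1.06, and Perm1 at 0.98, Ankrd23 at 0.97, Nrap at 0.95, Eno3 at 0.94 and Des at 0.93 just outside. A further 9 probes without a gene symbol met the rule and are not counted.

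Serine proteases of the pancreas led the 61 genes. Try4, a trypsinogen on chromosome 6, was at 5.12 at 1 hour, against a lowest value of -0.50, a median of -0.46 and a highest value of -0.22 on the other 7 arrays. The trypsinogens Try10 and Try5 were at 4.93 and 4.83, where no other liver array exceeded -0.23 and -0.28. Prss2 was at 1.30 at 1 hour, against -0.39 to -0.30 on the others. Trypsinogen genes are near-identical copies, so a bead probe for one can read another, and their separate levels are uncertain; the same holds for the kallikreins Klk1 (2.34 at 1 hour, against -0.55 to -0.23), Klk1b5 (2.32, against -0.21 to 0.07) and Klk1b27 (1.93, against -0.33 to 0.14).

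The elastases and chymotrypsins were high on the same array. Cela2a, an elastase, reached 6.53 at 1 hour, against 0.17 to 1.49 on the other 7 arrays with a median of 0.91. Cela3b was at 4.32 at 1 hour, against -0.23 to 0.26. Cela1 was at 5.48 at 1 hour, against 2.52 to 3.73, with a median of 3.11. The chymotrypsinogen Ctrb1 was at 4.79 at 1 hour, against -0.10 to 0.17, and chymotrypsin-like Ctrl at 4.82, against 0.13 to 0.32. Cpb1, a carboxypeptidase that trims basic residues, was at 4.56 at 1 hour, against -0.45 to -0.17. Of these genes, Cela1 alone exceeded 2 on every liver array.

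Enzymes for fat, nucleic acid and starch were high as well. The lipase-related Pnliprp1 was at 5.00 at 1 hour, against -0.35 to 0.18 on the other 7 arrays. Clps, the colipase that holds pancreatic lipase on fat droplets, was at 4.14, against -0.26 to 0.20, and its second probe read 5.67, against -0.38 to 0.47. Cel, the bile salt-dependent lipase, was at 4.01 at 1 hour, against -0.36 to -0.20. Other digestive enzymes lay above the range too. Pla2g1b, a secreted phospholipase, was at 3.27 at 1 hour, against -0.55 to -0.29. The ribonuclease Rnase1 was at 4.19, against -0.52 to -0.24, and pancreatic amylase Amy2a5 was at 2.10, against -0.43 to -0.15. Pnliprp2, another lipase-related gene, and Cuzd1, a granule membrane protein gene, were at 1.68 and 1.55, against -0.34 to 0.27 and -0.52 to -0.22.

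Proteins of the granule and of the secreted fluid followed the enzymes. Zg16, a lectin of the zymogen granule membrane, was at 5.07 at 1 hour, against -0.65 to -0.02 on the other 7 arrays. Sycn, which helps granules fuse, was at 4.05, against -0.41 to -0.21, and the granule glycoprotein Gp2 was at 3.40, against -0.39 to -0.13. Reg1, a secreted C-type lectin, was at 4.91 at 1 hour, against -0.10 to 0.58, and its relative Reg2 was at 2.89, against -0.36 to -0.09. Spink1, the trypsin inhibitor made by acinar cells, was at 3.31, against -0.07 to 0.33. Gm5771, a gene of chromosome 6 on no list, was at 3.88 at 1 hour, against -0.54 to -0.26.

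Factors that regulate acinar genes showed smaller differences. The PTF1 complex, which drives acinar enzyme genes, contains Ptf1a and Rbpjl. Rbpjl was at 1.07 at 1 hour, against -0.39 to -0.25 on the other 7 arrays, but its second probe, at -0.47, lay below the other 7 (-0.37 to -0.11). Ptf1a was at 0.03 at 1 hour, against -0.40 to -0.04, and Bhlha15, another acinar factor, at 0.21 within the range of the others (-0.25 to 0.31).

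Of the 37 symbols on the exocrine pancreas list, 30 matched a gene on the array. At 1 hour 29 of these lay above the range of the other 7 arrays and 26 were among the 61 genes. Beside that, 1314 of all 16110 genes (8.16%) lay above the range by any margin. The median difference from the median of the other 7 arrays was 3.99 for the list and -0.04 for all genes. The list averaged 3.54 at 1 hour, against -0.08 to 0.03 on the other liver arrays, -0.38 to -0.34 on the heart arrays and -0.60 to -0.51 on the brain arrays. The highest value of any of its 26 high genes was 0.42 on a heart array and 0.93 on a brain array, and on the other liver arrays all but Cela1 and Cela2a stayed at or below 0.58, the value of Reg1 in untreated liver. Other members above the range by less than the limit were Prss3 (1.17 at 1 hour, against -0.21 to 0.32) and Dmbt1 (2.79, against -0.46 to 2.05), whose highest other value was on the untreated array.

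**Figure D2:**
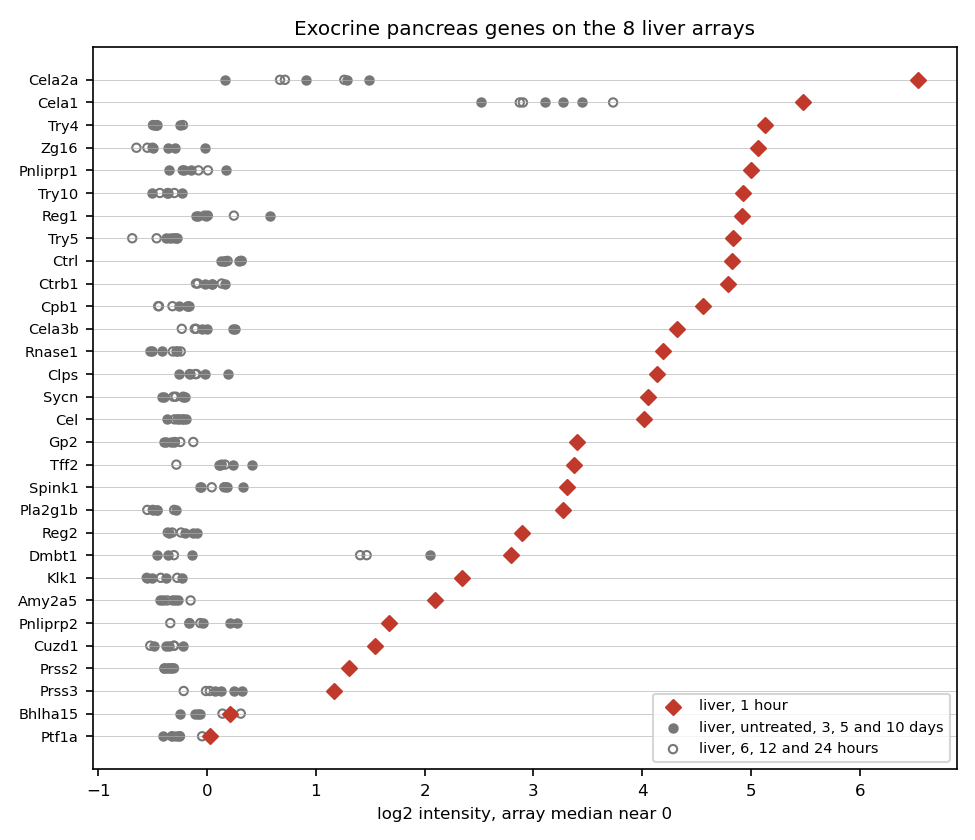
Rows are the 30 exocrine pancreas genes and the horizontal axis is log2 intensity with the array median near 0. Red diamonds mark the liver array of 1 hour, filled grey points the untreated, 3, 5 and 10 day arrays and open points the 6, 12 and 24 hour arrays, and the diamond lies right of all grey points for every gene but Bhlha15.

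Hormone genes of the pancreas did not accompany the enzymes to a similar degree. Of 13 islet genes, 1 (7.69%) lay above the range and 2 (15.4%) below it, near the 8.16% and 15% of all genes. Among the 61 were 0 of the 13, beside 0.379% of all genes. Ins2, an insulin gene, was at 0.99 at 1 hour, against -0.41 to 0.36 on the other 7 arrays. Glucagon (Gcg) was at -0.38 at 1 hour, against -0.46 to -0.21, somatostatin (Sst) at -0.36, against -0.44 to -0.11, and pancreatic polypeptide (Ppy) at -0.11, against -0.47 to 0.05. Lists of the other organs near the liver gave single genes. The intestine list had 1 of 19 genes among the 61, Reg3b (0.88 at 1 hour, against -0.42 to -0.18), which the pancreas can also make and whose second probe was not high. Stomach (12 genes) and gall bladder and bile duct (16 genes) each had 1, Tff2, which is also on the pancreas list. White fat (16 genes), kidney (11), adrenal cortex (11) and mesothelium (10) had 0, beside 0.379% of all genes. By any margin 3, 1, 3 and 2 of their genes lay above the range (18.75%, 9.09%, 27.3% and 20%), beside 8.16% of all genes. Of 9 brown fat genes 3 (33.3%) lay above it and 1, Cox7a1, was among the 61. Cox7a1 averaged 8.78 on the heart arrays. Adipoq, the adipocyte hormone, was at -0.08 at 1 hour, against -0.24 to 0.04.

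The sequences before the start of 2 of these genes, from RefSeq on GRCm38.p6, are printed for the elements PTF1 is known to use together, an E-box (CANNTG) and a TC-box (TTTCCC); Cel held both and Try4 the E-box alone. Both motifs were searched on both strands in the 250 bases before the start. Capitals mark E-boxes in both genes and, in Cel, the TC-box as well, which reads GGGAAA on the printed strand. Try4 lies at chr6:41302022-41302271 on the plus strand and holds 3 E-boxes with 0 TC-boxes. Cel lies at chr2:28563404-28563653 on the minus strand and holds 5 E-boxes with 1 TC-box.
Try4: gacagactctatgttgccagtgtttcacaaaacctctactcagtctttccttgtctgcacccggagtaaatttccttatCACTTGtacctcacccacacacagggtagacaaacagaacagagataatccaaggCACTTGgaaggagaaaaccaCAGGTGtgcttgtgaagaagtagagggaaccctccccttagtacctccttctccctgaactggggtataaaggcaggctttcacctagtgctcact
Cel: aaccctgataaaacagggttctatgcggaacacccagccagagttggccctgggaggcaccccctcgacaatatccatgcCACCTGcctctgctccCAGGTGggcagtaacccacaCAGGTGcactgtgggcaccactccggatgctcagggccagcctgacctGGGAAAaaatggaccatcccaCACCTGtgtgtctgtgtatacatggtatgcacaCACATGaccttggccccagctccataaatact

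An upstream sequence was given for 49 of the 61 genes, 20 of them on the pancreas list. An E-box was found in 45 of the 49 and in 17 of the 20, and in 66% of 12992 genes on the array. An E-box with a TC-box at most 25 bases away was found in 6 of the 49 and in 3 of the 20, and in 5.08% of all genes. Both elements are short, and a match of letters is a description of the sequence alone.

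Muscle genes made up the second group. Acta1, the skeletal alpha-actin, was at 5.18 at 1 hour, against a lowest value of -0.53, a median of -0.40 and a highest value of 1.49 on the other 7 liver arrays. The 2 highest of those were 6 hours (0.97) and 10 days (1.49), and the remaining 5 were below 0. Tnnc2, the calcium-binding troponin C of fast fibres, was at 4.35 at 1 hour, against -0.56 to 0.88. Again 6 hours (0.72) and 10 days (0.88) were the highest of the others. The inhibitory troponin Tnni2 was at 4.18 at 1 hour, against -0.35 to 1.00, and the fast troponin T gene Tnnt3 at 2.99, against -0.41 to 0.42.

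Other genes of the skeletal muscle list were mostly high as well. Atp2a1, the calcium pump of fast muscle, was at 3.92 at 1 hour, against -0.14 to 1.08. The myosin light chain Mylpf was at 3.61, against -0.30 to 0.56, and Myl1 at 4.28, against -0.46 to 1.10, although a second Myl1 probe read 0.06, against -0.44 to -0.24. Pvalb, a calcium buffer of fast fibres, was at 2.46 at 1 hour, against -0.30 to -0.14. Ckm, muscle creatine kinase, was at 2.05, against -0.56 to -0.04, and averaged 7.35 on the heart arrays. The fast myosin heavy chain Myh1 lay above the range by less than the limit, at 0.85, against -0.52 to -0.05. Casq1, the calcium store protein of fast fibres, was at -0.39, within -0.46 to -0.23.

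Of 17 skeletal muscle genes on the array, 14 (82.4%) lay above the range and 9 were among the 61, beside 8.16% and 0.379% of all genes. The median difference was 2.51 for the list, against -0.04 for all genes. The list averaged 2.24 at 1 hour, against -0.15 to 0.40 on the other liver arrays, where 10 days was highest. The heart arrays averaged 2.02 to 2.38 for this list, and its single genes differed widely there. Tnnc2, Tnnt3 and Mylpf, at 4.35, 2.99 and 3.61 in liver at 1 hour, averaged -0.29, -0.31 and 0.08 on the 8 heart arrays. Acta1, Myl1 and Ckm, also among the 61, averaged 6.13, 6.07 and 7.35 there. Eno3 and Pygm, above the range by less than the limit, averaged 7.90 and 4.29. Which tissue the signal came from was not tested.

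Genes that the heart makes in quantity were partly high. On the heart muscle list 5 of 12 genes (41.7%) lay above the range and 2 were among the 61, beside 8.16% and 0.379% of all genes. Mb, myoglobin, was at 3.51 at 1 hour, against -0.12 to 0.86 on the other liver arrays, and a second Mb probe was at 2.82, against -0.27 to 0.32. Myl2, the slow and ventricular myosin light chain, was at 3.17, against -0.55 to 2.00. The array of 24 hours gave the 2.00, and it was also the highest of the others for Myl3 (1.77 at 24 hours, against 2.50 at 1 hour). Myl2, Myl3 and Mb are shared by the heart and slow skeletal fibres. Of the genes most typical of cardiac muscle, Actc1, cardiac actin, was at 0.92 at 1 hour, against -0.61 to 0.50, and cardiac troponin Tnni3 at 0.13, against -0.42 to -0.07, both above the range by less than the limit. Others were within it: Myh6, the alpha myosin heavy chain, was at 0.25 in liver at 1 hour, against -0.34 to 0.55, and averaged 8.68 in heart. Nppa, the atrial natriuretic peptide gene, was at -0.19 at 1 hour, against -0.35 to 0.35, and averaged 8.65 in heart.

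Among the 20 high genes on no list, 15 were at 2 or more on all 8 heart arrays. They included Ckmt2, the mitochondrial creatine kinase of striated muscle (3.01 at 1 hour, against -0.56 to 0.14), Cox6a2, a muscle subunit of cytochrome oxidase (3.43, against -0.49 to 0.73), and Fabp3, a fatty acid carrier of muscle (2.90, against -0.37 to 0.35). They also held Cox8b, Pgam2, Rpl3l, Tcap, Hrc, Myoz2 and Trim72, between 0.94 and 2.94 at 1 hour, sarcomere genes such as Ttn (2.00 at 1 hour, against -0.44 to 0.09) and Actn2 (1.73, against -0.44 to -0.14), and Sln, a regulator of the calcium pump (1.90, against -0.45 to -0.19). Over all 61 genes, 23 (37.7%) were this bright on every heart array, beside 21.7% of all 16110 genes. On the pancreas list it was 0 of 26. The remaining 5 genes on no list were Gm5771, 2210010C04Rik, the 2 kallikreins and Rbpjl, and none of these was that bright in heart. Eef1a2, a translation factor of muscle and neurons, was at 1.66 in liver at 1 hour, against -0.39 to 0.09, and Fxyd6, a sodium pump regulator, at 1.76, against -0.02 to 0.44, and both were bright in brain as well (means of 7.13 and 6.12). Of genes on stress lists, the small heat shock protein gene Cryab was at 1.88 at 1 hour, against -0.25 to 0.80, and Nupr1, a stress-induced chromatin protein, at 1.98, against 0.35 to 0.83. Both were bright on all 8 heart arrays (means of 7.41 and 2.69), and which tissue their signal came from was not tested. Their heat shock and unfolded protein response lists had 1 of 16 (6.25%) and 2 of 26 (7.69%) above the range, beside 8.16% of all genes.

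**Figure D3:**
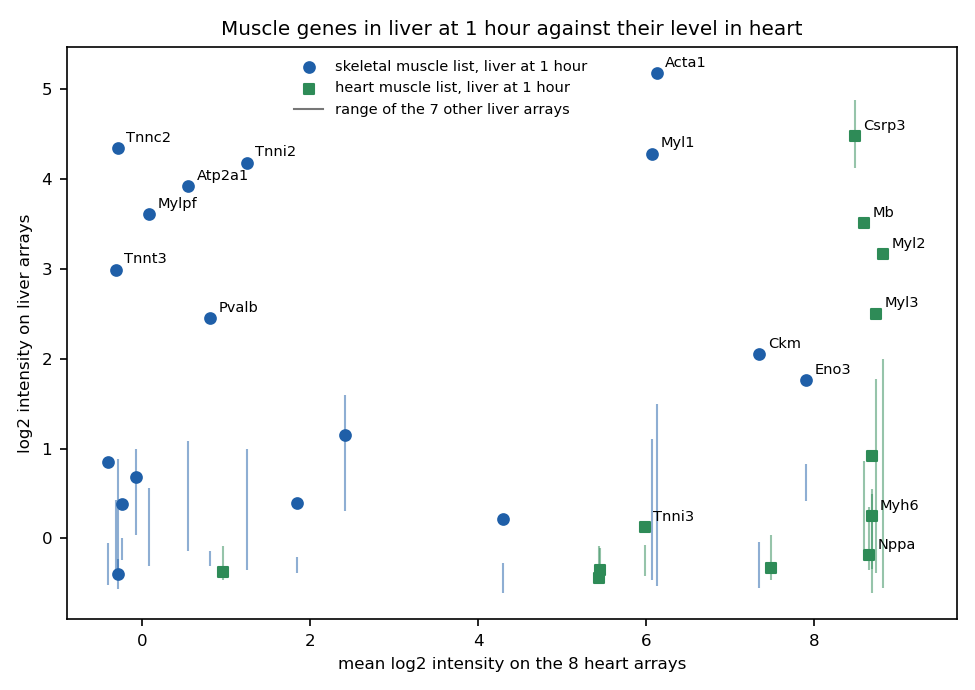
Each point is a gene of the skeletal (blue circles) or heart muscle list (green squares), with its log2 intensity in liver at 1 hour on the vertical axis, its mean over 8 heart arrays on the horizontal axis, and a thin line for the range of the 7 other liver arrays. Tnnc2, Tnnt3 and Mylpf stand high in liver with a heart level near 0, while Myh6 and Nppa are above 8 in heart and lie within the liver range. Acta1, Myl1, Ckm, Mb and Myl2 lie above the liver range and have high heart means as well.

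The sequence before Acta1 is shown for its CArG box, the site of serum response factor (CC, 6 bases that are each A or T, then GG), and that before Tnnc2 for its E-boxes, which muscle factors of the MyoD family bind. Acta1 lies at chr8:123894776-123895025 and Tnnc2 at chr2:164779735-164779984, both on the minus strand of GRCm38.p6 and both from RefSeq. In Acta1 the capitals mark the 1 CArG box, whose first base is at -73 from the start. In Tnnc2 they mark 2 E-boxes.
Acta1: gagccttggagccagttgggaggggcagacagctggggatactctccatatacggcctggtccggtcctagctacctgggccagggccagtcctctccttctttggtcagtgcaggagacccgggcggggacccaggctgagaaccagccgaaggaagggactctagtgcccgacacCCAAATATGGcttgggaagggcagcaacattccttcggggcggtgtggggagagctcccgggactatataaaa
Tnnc2: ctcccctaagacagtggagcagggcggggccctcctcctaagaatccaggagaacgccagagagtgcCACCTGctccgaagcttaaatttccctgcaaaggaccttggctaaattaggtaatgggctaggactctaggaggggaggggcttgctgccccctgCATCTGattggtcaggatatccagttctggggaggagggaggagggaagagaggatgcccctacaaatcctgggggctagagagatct

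A CArG box was found in 1 of the 49 genes with a sequence, Acta1, and in 1.47% of all genes. E-boxes were found in 9 of the 9 genes of the skeletal and heart muscle lists that had a sequence, and in 66% of all genes. The cAMP response element (TGACGTCA), the palindromic glucocorticoid response element and the heat shock element were each found in 0 of the 49, and in 2.32%, 0.0154% and 0.446% of all genes. The D-box of clock factors (TTANGTAA) was found in 1 of the 49 and in 2.12% of all genes. An NF-kB site was found in 4 of the 49 and in 6.7% of all genes.

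A second probe gave a partial check of the 61 genes. The array held 11 further probes for 10 of them, and 8 of these 11 probes also lay above the range of the other 7 liver arrays, 5 of them by at least 1. The margins of these 5 were 5.20 for Clps, 2.56 for Pnliprp2, 2.51 for Mb, 2.44 for Ckmt2 and 1.59 for Eef1a2. The second probes of Klk1b27, Rbpjl and Reg3b did not lie above the range. The closest liver arrays by correlation, untreated and 10 days, gave a similar count. Against these alone 71 genes (0.441%) were higher at 1 hour by at least 1, and 2 genes (0.0124%) were lower. The lower 2 were Bst2, an antiviral membrane protein, at 2.30 at 1 hour, against 3.69 in untreated liver and 3.47 at 10 days, and Srsf5, a splicing factor, at 3.31, against 4.46 and 4.76.

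The liver's own genes were examined by their position within the range, since few moved far. Of 6866 genes above the median on all 7 other liver arrays, 239 (3.48%) lay above the range at 1 hour by any margin and 1230 (17.9%) below it, and by at least 1.5-fold 11 (0.16%) lay above and 7 (0.102%) below. The 11 held the pancreas genes Cela2a, Ctrl and Cela1 and muscle genes such as Eno3, Des and the slow troponin T gene Tnnt1. The 7 below were Dclk3, a kinase (1.46 at 1 hour, against 2.33 to 3.70), Aacs, which activates acetoacetate for lipid synthesis (3.04, against 3.72 to 5.31), Hes6, Epha1, Hamp2, Srsf5 and Cd82. The same array carried the pancreas list at 3.54 and the skeletal muscle list at 2.24, against at most 0.03 and 0.40 on the other liver arrays, and the part of this in the liver genes' positions was not tested. With all 8 liver arrays brought to the same distribution, 546 lay above and 996 below. Among the 1440 genes with a median of at least 4 on the other liver arrays, 314 (21.8%) lay below the range and 3 lay above.

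Fatty acid synthesis genes were below the range most often among the liver lists. Of 17 such genes, 9 (52.9%) lay below the other 7 liver arrays, beside 17.9% of liver-expressed genes, and 0 lay above. The median difference was -1.07, against -0.16 for all liver-expressed genes. It was -0.51 for the bright genes, those with a median of at least 4 on the other liver arrays, of which 21.8% lay below the range. After equal distributions the list's median difference was -0.41, against -0.03 for the bright genes. Then 6 of its 17 genes lay below the range, beside 996 of 6866 liver-expressed genes. Against untreated liver alone the list's median difference was -0.47, against -0.25 for the bright genes and -0.05 for all genes. Srebf1, the transcription factor that turns on lipogenic genes, was at 1.85 at 1 hour, against a lowest value of 2.39, a median of 3.21 and a highest value of 4.94 on the other 7 arrays. The lowest of these were untreated (2.44) and 10 days (2.39). Acly, which makes cytosolic acetyl-CoA, was at 5.02 at 1 hour, against 5.46 to 8.68.

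The chain elongase Elovl6 was at 3.20 at 1 hour, against 3.40 to 7.04, and the desaturases Fads1 and Fads2 at 6.67 and 3.17, against 7.10 to 9.98 and 3.32 to 5.20. Dgat2, which completes triglycerides, was at 6.57 at 1 hour, against 6.74 to 9.99. For Scd1, Mlxipl and Slc25a1 the margin was 0.05. Fasn, fatty acid synthase itself, was at 0.48 at 1 hour, within 0.09 to 1.22 on the others. Thrsp, a lipogenic regulator, was at 4.41, within 4.40 to 9.75. The list averaged 3.88 at 1 hour, against 4.12 to 6.13 on the other 7 arrays, where untreated was at 4.22.

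**Figure D4:**
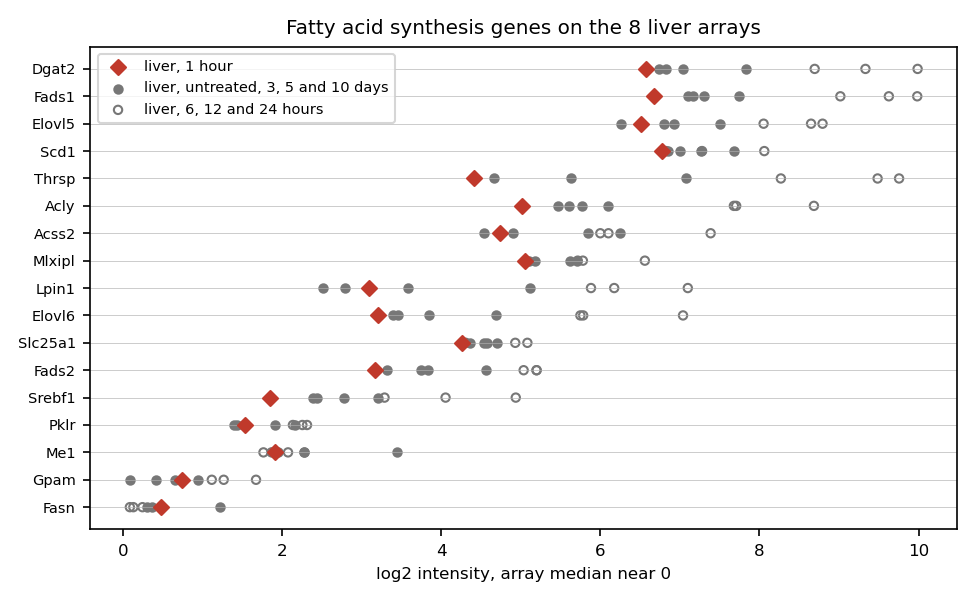
Rows are the 17 fatty acid synthesis genes and the horizontal axis is log2 intensity with the array median near 0. The red diamond of the 1 hour liver array lies left of all 7 other liver arrays for 9 genes, next to the filled points of the untreated, 3, 5 and 10 day arrays, while the open points of 6, 12 and 24 hours lie far to the right for most genes.

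Cholesterol synthesis genes lay on the same side, with 4 of 16 (25%) below the range and 0 above, beside 17.9% of liver-expressed genes. After equal distributions 2 of the 16 were below it, so the count did not hold. Hmgcs1, the first committed step, was at 6.80 at 1 hour, against 7.25 to 10.14, and Fdps was at 4.92, against 5.24 to 8.18. Lss, which closes the sterol rings, was at 1.43, against 1.83 to 3.69. The list's median difference was -0.68, and -0.66 after equal distributions. Its mean was 3.06 at 1 hour, within 2.87 to 4.55 on the other 7 arrays, where 5 days was lowest.

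Drug metabolism and acute phase lists had 12 of 34 and 11 of 32 genes below the range, beside 15% of all genes. After equal distributions 4 of 34 and 7 of 32 were below it, beside 2240 of all 16110 genes. The drug metabolism count thus did not hold. The median differences of the 2 lists, -0.23 and -0.50, became -0.02 and 0.02. Cyp1a2, a cytochrome P450 of xenobiotic oxidation, was at 5.97 at 1 hour, against 6.42 to 8.46, and Cyp2a5 was at 6.77, against 7.19 to 10.09. Fmo5, a flavin monooxygenase, was at 4.31, against 4.65 to 8.17. Hamp2, a hepcidin gene, was at 6.84 at 1 hour, against 7.49 to 10.85, and the acute phase protein gene Orm2 at 3.78, against 4.18 to 6.89. The metallothioneins Mt1 and Mt2, which bind zinc and copper, were at 7.65 and 0.65, against 7.78 to 11.15 and 0.95 to 2.23.

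Some genes of the PPARalpha and fasting list lay the other way, with 4 of 24 above the range and 0 below it. The other 20 were within it, and the list's median difference was 0.12, with single genes from -1.51 to 1.37. Pdk4, which blocks entry of pyruvate into oxidation, was at 2.16 at 1 hour, against 0.27 to 1.44 on the other 7 arrays. It is also a striated muscle gene and averaged 5.88 on the heart arrays, so which tissue its signal came from was not tested. Plin2, a lipid droplet coat protein, was at 4.45, against 2.31 to 4.16, and Fgf21, a fasting hormone of the liver, at 1.22, against 0.18 to 1.13. The macrophage list had 4 of 14 genes above the range and 0 below, led by C1qa, a complement component, at 2.73, against 1.06 to 2.24. These shares, 16.7% and 28.6%, stand beside 8.16% of all genes.

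Early response and clock genes lay outside the range about as often as all genes. Of 34 immediate early genes 3 (8.82%) lay above the range and 5 (14.7%) below, and of 21 clock genes 1 (4.76%) lay above and 3 (14.3%) below, beside 8.16% and 15% of all genes. Fos was at -0.04 at 1 hour, against -0.04 to 1.05 on the other 7 arrays. Egr1, which is induced by growth factors and stress, was at 3.75, against 1.80 to 4.72. Per1, a clock gene that also responds to cAMP and glucocorticoids, was at 2.10, against 2.06 in untreated liver, 3.12 to 3.50 from 6 hours to 5 days and 1.07 at 10 days. Dbp, a clock output factor, was at 2.22, against 3.15 in untreated liver, 5.02 to 6.47 from 6 hours to 5 days and 1.91 at 10 days. For both genes 1 hour lay beside untreated and 10 days.

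The metabolic genes G6pc, Pck1 and Cyp7a1, and Alb, were within the range. Some other members of their lists were not. Of 17 gluconeogenesis and glycogen genes 2 (11.8%) lay above the range and 2 (11.8%) below. Of 19 bile acid genes 0 lay above and 3 (15.8%) below, beside 8.16% and 15% of all genes. G6pc, the last step of glucose release, was at 6.01 at 1 hour, against 5.67 in untreated liver, 6.34 to 8.39 from 6 hours to 5 days and 6.09 at 10 days. Its difference from the median of the other 7 was -1.35, but from untreated liver it was 0.34. Pck1, the enzyme that starts gluconeogenesis, was at 0.52, against 0.56 in untreated liver and 0.23 to 1.40 over all 7. Cyp7a1, the rate-limiting enzyme of bile acid synthesis, was at 5.16, against 4.88 in untreated liver, 8.54 to 9.40 from 6 to 24 hours, 5.04 at 3 days, 5.25 at 5 days and 4.55 at 10 days. Alb, the albumin gene, was at 1.54, against 2.06 in untreated liver, 1.40 at 10 days and 0.59 to 2.30 over all 7. The 2 adrenergic receptor genes on the array were within the range.

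**Figure D5:**
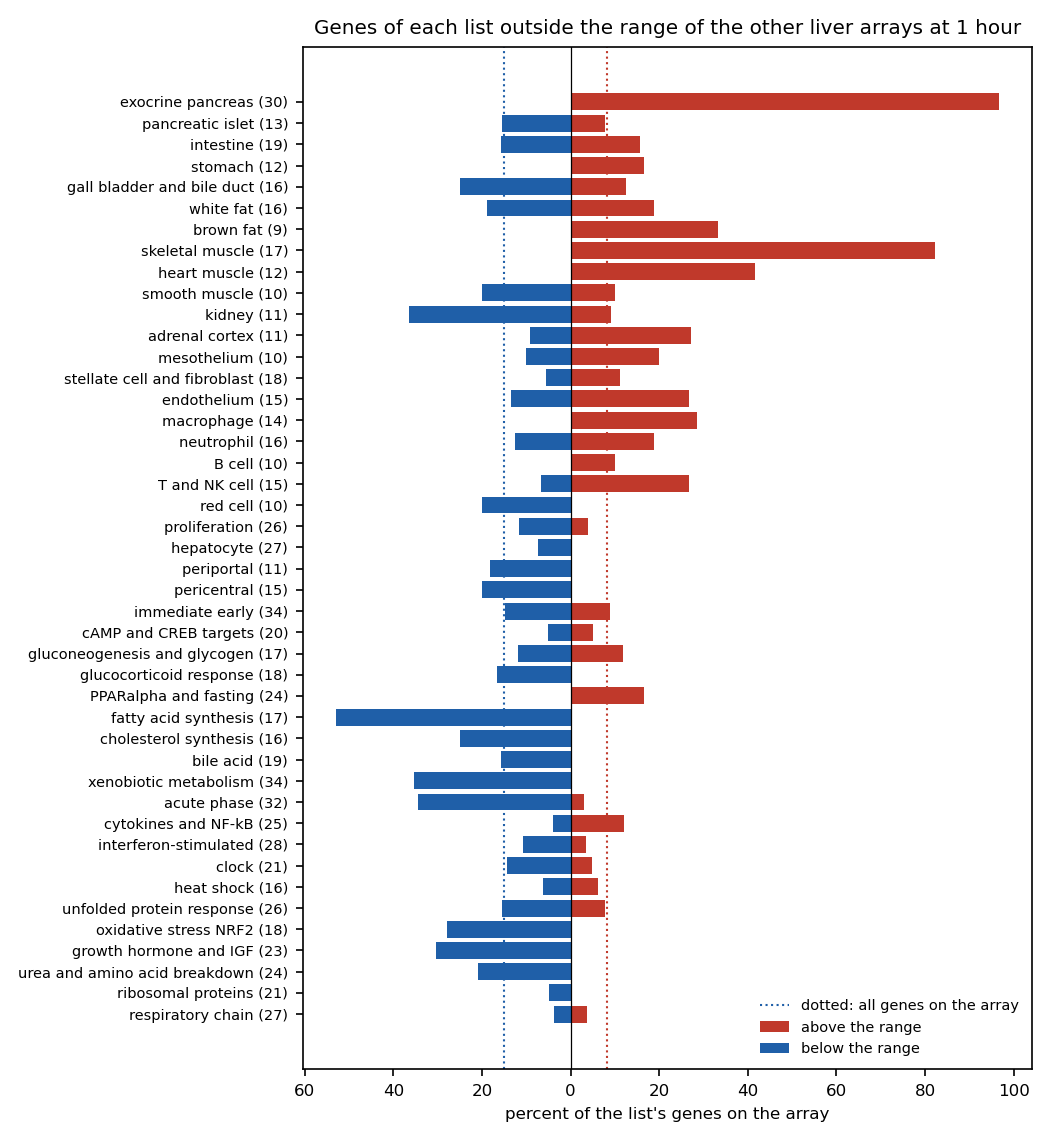
Bars give, for each gene list with at least 3 genes on the array (number in brackets), the percent of its genes above (red, right) or below (blue, left) the range of the 7 other liver arrays at 1 hour, with dotted lines for all 16110 genes at 8.16% and 15%. Exocrine pancreas and skeletal muscle extend far to the right, and fatty acid synthesis extends farthest to the left.

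The brain and heart arrays of 1 hour, which the choice of genes did not use, were compared with those of the other times. In a limma fit of 1 hour against the other times, with 2 arrays against 14 and tissue as a block, 0 of 10934 genes were higher and 0 lower (0%) at an adjusted p under 0.05. The lowest adjusted p was 0.372, and 1426 genes had an unadjusted p under 0.05. As no gene was called, the fit cannot tell the 61 genes from any others. Of the 61 genes 38 passed its filter and 23 did not, and some of the 38, such as Ctrb1 and Tff2, passed through liver arrays alone. Their median log2 change was 0.13, against 0.11 for all genes tested, and 3 of the 38 had an unadjusted p under 0.05.

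Acta1 showed a log2 change of 0.92 (SE 0.40, adjusted p = 0.372, limma) in this fit. By the rule used for liver, 0 of the 61 genes were high at 1 hour in heart and 0 in brain, where 30 (0.186%) and 0 (0%) of all genes were. Low genes numbered 1 (0.00621%) in heart and 0 (0%) in brain. The pancreas list averaged -0.36 on the heart array and -0.58 on the brain array of 1 hour, against 3.54 on the liver array.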

How the data were processed

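Total RNA was turned into biotin-labelled cRNA and hybridised to bead arrays, per the labels' protocols. The deposited table gives log2 values (base 2 assumed) for 25697 probes on 24 arrays; the authors' background correction and normalization were not given in the sources used here. Array medians near 0 show that the arrays were centred before deposit. Of the probes, 23141 had 1 gene symbol in the platform annotation and 2556 had none, and each of the 16110 genes is represented by 1 probe, the one of highest mean over all 24 arrays. A second deposited table was left out, since none of its 24 value columns could be tied to a sample by name.

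At 1 hour in liver, the distance to the highest and to the lowest of the 7 other liver arrays was taken, with limits of 1. The comparison of 1 hour with other times in brain and heart used limma 3.58.1 in R 4.3.3 (lmFit, eBayes, two-sided, Benjamini-Hochberg), on genes that exceeded the array median on 4 or more of 24 arrays. With 1 array per tissue and time, that test takes 2 tissues as its replicates at 1 hour. Other steps used Python 3.11.15. Upstream sequences were 250 bases, matched by gene identifier, and the TC-box search was added after seeing the data.

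The genes and the 45 lists (904 genes, 755 on the array) were chosen with earlier results of these data known. Named were the 15 widest margins among high genes, up to 6 members of a list with the largest differences outside the range, the defining genes of lists with at least 3 high genes, and 11 genes whatever their values (Fos, Egr1, Per1, Dbp, Pck1, G6pc, Alb, Cyp7a1, Prss2, Cela1, Adipoq). Dclk3, Apoc1, Bst2, Srsf5, the genes nearest the limit, the genes on no list and list members within the range were chosen after their values were seen. The alternatives were quantile normalization, other limits, no filter on the array median, the mean of a gene's probes, and leaving out each other liver array.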

Additional observations from a re-analysis of the deposited data

How the results depend on the processing

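No paired analysis was possible because the labels give no replicate numbers and each tissue and time has 1 array. The 61 high genes in liver at 1 hour became 64 with quantile normalization within liver, 69 over all 24 arrays, 59 with the mean of a gene's probes, 86 at a limit of 1.5-fold and 39 at a limit of 2 log2 units. The exocrine pancreas count of 26 ranged from 22 to 28 and the skeletal muscle count of 9 from 9 to 12 over all settings run. Leaving out 1 other liver array at a time gave 61 to 64 high genes, 26 to 27 pancreas genes and 9 to 10 skeletal muscle genes. The 0 low genes became 7 at a limit of 1.5-fold, and 0 to 1 with 1 array left out (1 without untreated). Xenobiotic genes below the range numbered 4 in place of 12, and acute phase genes 7 in place of 11 with either quantile normalization; fatty acid synthesis genes numbered 6 in place of 9. The cause was not tested. Liver-expressed genes above the range, 239, became 546 with either quantile normalization and 250 to 361 with 1 array left out (361 without untreated); those below, 1230, became 1245 to 1838. Against untreated, 3 days and 10 days alone, a setting added after seeing the data, 951 lay above and 2149 below, since fewer arrays make a narrower range. Against untreated and 10 days, 2 low genes became 14 without untreated and 12 without 10 days, and 71 high genes became 93 and 87. The limma comparison gave 0 genes under every setting run. No value changed its call's direction. A single array and the lack of background levels limit how low a gene could be measured.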

Other observations

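The heart array of 1 hour also stood apart, for genes of another organ. By the rule used for liver, 30 genes (0.186%) were high there. Of these, 29 had a median of at least 4 on the 7 liver arrays other than 1 hour, beside 1440 of all 16110 genes. Apoa2, an apolipoprotein made by hepatocytes, was at 6.84 in heart at 1 hour, against 0.46 to 5.71 on the other 7 heart arrays. The remaining gene was Xlr4a, an X-linked gene, at 3.07 in heart at 1 hour, against 0.89 to 1.71. It lay above the other 7 arrays by at least 0.5 in all 3 tissues, and was the only gene of 16110 to do so: 3.66 in liver at 1 hour, against 1.61 to 2.93, and 3.47 in brain at 1 hour, against 1.47 to 2.83. Its log2 change over brain and heart was 1.56 (SE 0.29, adjusted p = 0.372, limma), higher in 2 of 2 tissues, and did not pass the threshold. Both genes were picked out after their values were seen.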
